A study of Caenorhabditis elegans with 12 samples.

Results

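The ttr genes are the transthyretin-related genes of Caenorhabditis elegans, here every gene whose WBcel235 symbol is ttr followed by a number. The rule gave 57 members of the 20362 genes counted, and ttr-34 was not analysed here. Members were followed in whole embryos of the miR-51Fam null strain MLC1800 and of the wild-type strain N2 at 3 stages of embryogenesis (190-cell, bean and 2-fold), and each combination of strain and stage had 2 libraries of 50 pooled embryos. MLC1800 carried the deletions nDf67 and n4100 on chromosome IV and nDf58 on chromosome X, which remove the miR-51 microRNA family, and was kept alive by the extrachromosomal array lucEx1057, which holds a fosmid with miR-54C and the fluorescent markers ttx-3::gfp and mir-35p::gfp. How null embryos were told from embryos that kept the array is not given in the sources used here. Both strains were grown at 20 °C on OP50 bacteria. The 3′ ends of polyadenylated mRNAs were sequenced (QuantSeq), so levels are given as CPM (reads of a gene scaled to a library size in megareads) and need no correction for gene length. Membership was set by name. The family was selected on the measured counts of ttr-50, which were highest in bean embryos of these libraries, so the stage pattern of that gene is given below as a description with no test.

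Transthyretin-related proteins form a family that is large in nematodes and takes its name from a resemblance to transthyretin, the carrier of thyroid hormone in vertebrate blood. Most are small proteins with a signal peptide, predicted to be secreted, and most have no described role. TTR-52 is the best known: it is a secreted protein that binds phosphatidylserine on the surface of dying cells and joins it to the engulfment receptor CED-1 on the neighbour that takes up the corpse. TTR-33 is known from mutants in which dopaminergic neurons are unusually sensitive to oxidative damage. Of the stages sampled, the 190-cell embryo is still dividing and the bean embryo has started to lengthen. The 2-fold embryo, in wild type, is folded in its shell with muscles at work and tissues differentiating. The study reports that many embryos lacking the miR-51 family arrest during elongation. How closely null and wild-type embryos matched in shape at the 2-fold stage is not given in the sources used here.

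All 57 members were annotated as protein-coding, with a median mRNA of 569 bases (460 to 1415) and a median of 3 exons (2 to 9). Chromosome V held 22 of them, X held 11, IV held 10, III held 9, I held 3 and II held 2. Members often lay close together: 17 pairs of neighbours, covering 29 members, were within 10 kb of each other. On the X chromosome ttr-36 ended 89 bases before ttr-35 on the same strand, and on chromosome III ttr-2 and ttr-1 were 72 bases apart on the same strand. Reads from such close neighbours were counted per gene, and whether the counting used strand is not given in the sources used here.

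Depth varied widely. Replicate 1 of the null 190-cell embryos had 11081 reads assigned to genes and 3231 genes with reads, against 887059 to 9558104 reads and 7287 to 11531 genes in the other 11 libraries. Levels of scarce genes gave an estimate of 108775 to 250705 molecules per library in the 11 and 10132 in the shallow one, or 3.68 to 56.8 and 1.09 reads per molecule. The study states that duplicates were removed by molecular identifier, which would leave 1 read per molecule, so the estimate conflicts with the stated processing and this was not settled. A group's floor is here the level worth 3 estimated molecules over its libraries, which is too high if the counts are molecules. It was 25.2 CPM in null and 8.37 CPM in wild-type embryos at the 190-cell stage, and between 6.66 and 9.90 CPM in the later groups. Floors used unscaled library sizes, while CPM used TMM-scaled ones (scaling factors 0.780 to 2.22). Whether a mean is under a floor, and its ratio to a floor, are therefore approximate. The summed level of the yolk protein genes vit-1 to vit-6, which are made in the mother's intestine, was 0 to 40.7 CPM in the null libraries and 185 to 4276 CPM in the wild-type libraries, so this list moved with genotype. Whole embryos were measured, so fewer cells of a type and less RNA per cell cannot be told apart.

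Most ttr genes were scarce in embryos and a few were abundant. In all, 33 of the 57 members (57.9%) reached the minimum of 20 reads over the 12 libraries and were tested, against 59.2% of all genes, 10 had fewer reads and 14 had none. The minimum fell between ttr-32, with 27 reads, and ttr-24 and ttr-42, with 19 reads each. The chromosome V genes included 8 tested members of 22, against 7 of 9 on chromosome III, 8 of 10 on IV, 8 of 11 on X, 2 of 2 on II and 0 of 3 on I. No read came from ttr-11 (WBGene00009758, chromosome V, 20603314 to 20604428, plus strand) in any library. For ttr-33 (WBGene00016505, chromosome V, 7837093 to 7837909, minus strand) the level was 3.69 CPM in replicate 1 of the null bean embryos and 3.95 and 3.63 CPM in the wild-type 2-fold embryos, with no reads elsewhere, and every group mean was under its floor. Of the tested members, 15 averaged under 10 CPM over the libraries and 12 never exceeded 5 estimated molecules in a library.

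**Figure D1:**
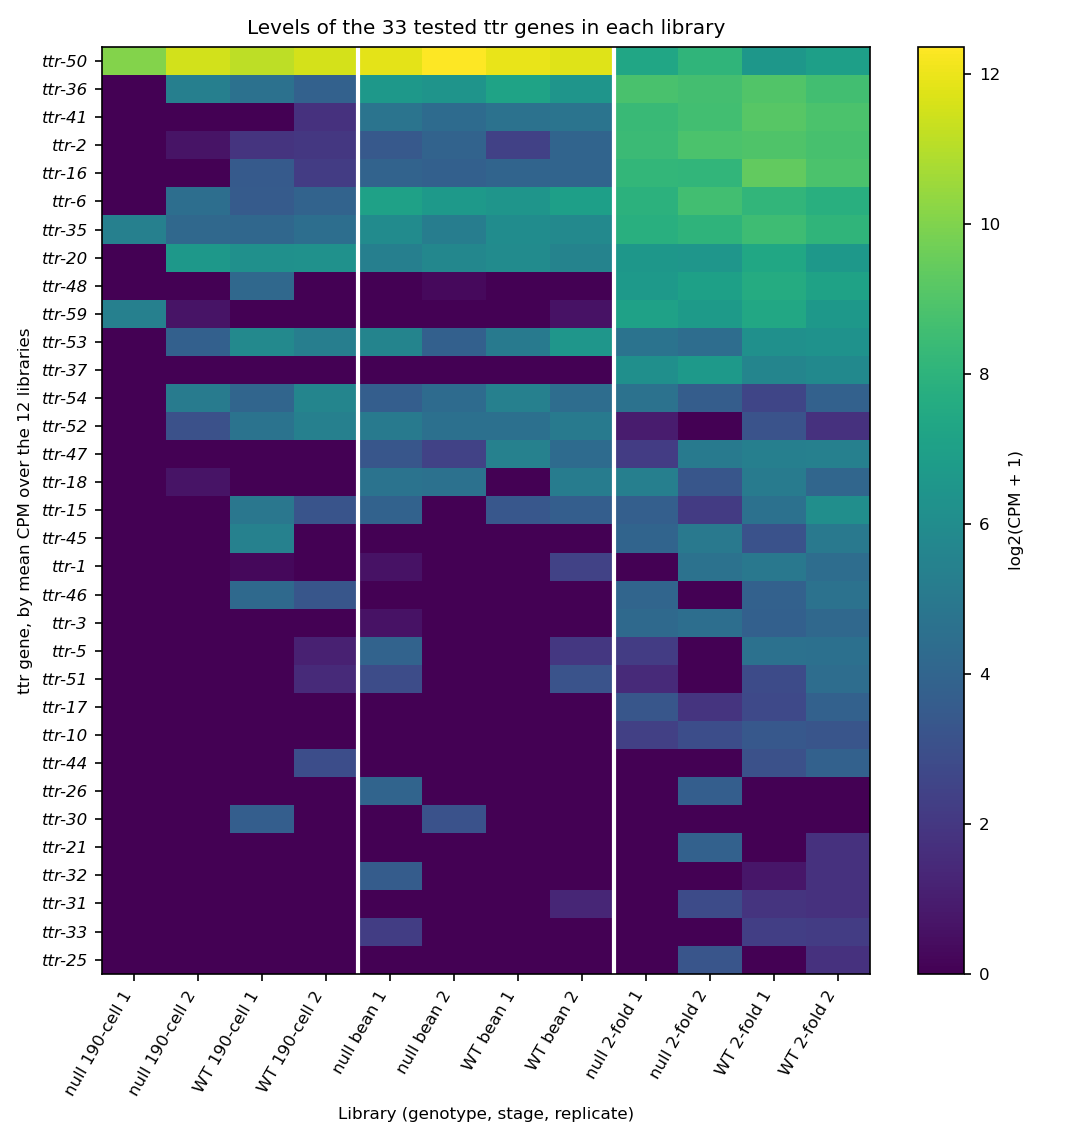
Level of the 33 tested ttr genes (rows, by mean CPM) in the 12 libraries (columns, by stage, null left of wild type), as log2 of CPM plus 1 on a colour scale. The ttr-50 row is brightest at the 190-cell and bean stages, while the rows of ttr-36, ttr-41, ttr-2 and ttr-16 are brightest at the 2-fold stage.

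The gene ttr-50 stood far above the rest. It (WBGene00010234, chromosome IV, 11640047 to 11641015, minus strand) averaged 2188 CPM over the libraries, which placed it 49th among all genes. In 190-cell embryos its level was 1058 and 2905 CPM in null and 2234 and 3013 CPM in wild type. In bean embryos it was 3705 and 5281 CPM in null and 3979 and 3433 CPM in wild-type embryos, and at the 2-fold stage 156.2 and 276.3 CPM in null and 92.1 and 125.8 CPM in wild-type embryos. Every bean library thus lay above every 190-cell library, and all 2-fold libraries lay below both earlier stages. As fitted log2 differences, bean over 190-cell was 1.12 in null and 0.50 in wild type, and 2-fold over bean was -4.37 in null and -5.10 in wild type.

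The reads of the family came from different genes early and late, as ttr-50 fell and the other members together rose. The share of ttr-50 was 85.2% to 92.9% of all ttr reads in the 190-cell and bean libraries. In 2-fold libraries it was 6.02% and 8.87% in null and 2.37% and 3.94% in wild type. The other members together summed to 81.4 and 229.6 CPM in null and 353.7 and 295.6 CPM in wild type at the 190-cell stage. In bean embryos the sum was 568.8 and 408.6 CPM in null and 546.9 and 596.2 CPM in wild type, and at the 2-fold stage 2441 and 2838 CPM in null and 3797 and 3071 CPM in wild type. The number of members with reads also differed, from 3 in the shallow null 190-cell library to 24 and 26 in null and 31 and 39 in wild-type 2-fold libraries, and these libraries also differed in depth.

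The first question was how the genes changed between stages, tested within each genotype with edgeR's quasi-likelihood test, Benjamini-Hochberg adjusted over all 12062 genes with at least 20 reads. From bean to 2-fold, 8 ttr genes rose in null embryos and the same 8 rose in wild-type embryos: ttr-2, ttr-16, ttr-41, ttr-35, ttr-36, ttr-37, ttr-48 and ttr-59. That is 8 of the 32 members counted in each genotype, which leaves out ttr-50, while 4.48% of all genes rose in null and 3.16% in wild type. Among the 8, ttr-37 and ttr-59 reached the 20-read minimum only through their 2-fold reads, which fixed their direction. Several other members in the counts and medians below also reached it only that way. The same minimum applied to all genes, and its part in these counts was not tested. One member fell, ttr-52 in null embryos, where 4.44% of all genes fell, against 0 members in wild type by edgeR and by DESeq2 (0 at an unadjusted p under 0.05), where 1.19% of all genes fell. Members whose 2-fold libraries both exceeded both bean libraries numbered 14 in null, where 24.2% of all genes did so, and 22 in wild type, where 31.5% did. In both genotypes at the same time 14 members did so, against 16.8% of all genes. The median log2 difference over the 32 members was 2.29 in null and 4.13 in wild type, against 0 and 0.19 over all genes tested. Over members with reads in both stages it was 1.45 in null (19 genes) and 1.86 in wild type (18 genes).

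**Figure D2:**
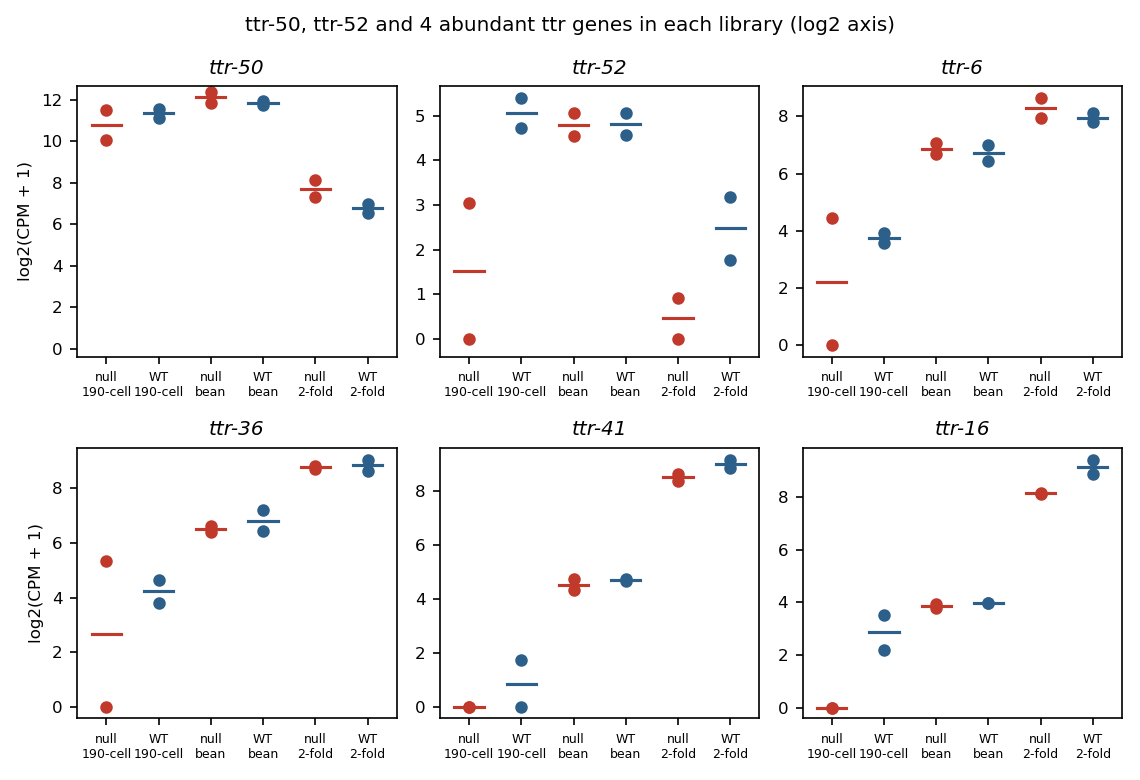
Levels of ttr-50, ttr-52, ttr-6, ttr-36, ttr-41 and ttr-16 in each library as log2 of CPM plus 1, by stage with null left of wild type, each point a library and each bar the mean of the 2 plotted values. Levels of ttr-50 and ttr-52 are lower at the 2-fold stage than at bean, while ttr-41 and ttr-16 reach 277.9 to 678.9 CPM at 2-fold.

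Large rises came from 3 genes that already had reads in every bean library. For ttr-2 (WBGene00010539, chromosome III, 9927769 to 9929004, plus strand) the level was 0 and 0.561 CPM in null and 2.68 and 2.98 CPM in wild type at the 190-cell stage, 10.02 and 14.1 CPM in null and 4.29 and 14.9 CPM in wild type at bean, and 346.0 and 464.7 CPM in null and 504.8 and 433.2 CPM in wild type at 2-fold. All 4 of its 2-fold libraries stood well above all 4 bean libraries. It rose by a log2 difference of 5.05 in null (SE 0.61, edgeR adjusted p = 1.52e-06) and 5.58 in wild type (SE 0.63, edgeR adjusted p = 1.02e-06). Its close neighbours ttr-1 and ttr-3 stayed at or below 30.4 CPM and were not called.

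The chromosome IV gene ttr-16 (WBGene00012382, 11063530 to 11064137, minus strand) had 0 and 0 CPM in null and 10.5 and 3.58 CPM in wild type at the 190-cell stage, 14.2 and 12.7 CPM in null and 14.7 and 14.9 CPM in wild type at bean, and 286.6 and 277.9 CPM in null and 678.9 and 468.3 CPM in wild type at 2-fold. Bean libraries were close to one another and all 2-fold libraries lay far above them. The log2 rise from bean to 2-fold was 4.39 in null (SE 0.59, edgeR adjusted p = 8.11e-06) and 5.27 in wild type (SE 0.61, edgeR adjusted p = 2.2e-06). Its neighbour ttr-17, 1881 bases away, had reads at the 2-fold stage only, at 2.68 to 13.3 CPM.

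On chromosome II, ttr-41 (WBGene00017374, 4727328 to 4727869, minus strand) had 0 and 0 CPM in null and 0 and 2.38 CPM in wild type at the 190-cell stage, 25.9 and 19.002 CPM in null and 24.5 and 25.9 CPM in wild type at bean, and 328.6 and 396.3 CPM in null and 564.8 and 463.4 CPM in wild type at 2-fold. Its stages did not overlap in either genotype. From bean to 2-fold it rose by 4.02 on the log2 scale in null (SE 0.66, edgeR adjusted p = 0.000189) and by 4.35 in wild type (SE 0.67, edgeR adjusted p = 0.000132).

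A second set of genes on the X chromosome had few or no reads in most libraries before the 2-fold stage. No read of ttr-37 (WBGene00017667, 1335364 to 1337175, minus strand) came from any 190-cell or bean library, while its 2-fold levels were 71.4 and 100.2 CPM in null and 48.5 and 56.9 CPM in wild type. Its 2-fold mean was 10.3 times the bean floor in null (edgeR adjusted p = 0.00116) and 6.44 times that floor in wild type (edgeR adjusted p = 0.00498). Its 2-fold reads alone took it past the 20-read minimum, so the filter fixed its direction and these p-values are no separate support for a rise. For ttr-48 (WBGene00022515, 3840869 to 3842448, minus strand), 1 wild-type 190-cell library had 17.1 CPM and 1 null bean library had a single read, and at 2-fold it had 97.3 and 130.1 CPM in null and 192.9 and 140.4 CPM in wild type. Its 2-fold libraries exceeded every earlier one. In wild type its 2-fold mean was 20.4 times the bean floor (edgeR adjusted p = 0.00232). In null, where bean embryos had that 1 read, the 2-fold mean was 13.7 times the bean floor (edgeR adjusted p = 0.00218). The null call was lost without null bean replicate 2 (adjusted p = 0.0588), and the wild-type call without either wild-type bean library (adjusted p = 0.0910 and 0.0837).

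The X-linked ttr-59 (WBGene00020339, 7329818 to 7330669, plus strand) had 2-fold levels of 132.1 and 106.1 CPM in null and 172.5 and 95.6 CPM in wild type. At bean it had no reads in null and a single read in wild type, and at the 190-cell stage 1 read in each null library and none in wild type. In null its 2-fold mean was 14.4 times the bean floor (edgeR adjusted p = 3.32e-05). In wild type, where bean embryos had 1 read, its 2-fold mean was 16.4 times the bean floor (edgeR adjusted p = 0.000201). Its 2-fold reads alone took it past the minimum read count for testing, so the filter fixed its direction. These p-values are therefore no separate support for a rise. Floors cover counting error only.

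The X-chromosome neighbours ttr-36 and ttr-35 were detected early and rose by smaller steps. The level of ttr-36 (WBGene00044605, 6510927 to 6512195, plus strand) was 0 and 39.9 CPM in null and 23.9 and 13.1 CPM in wild type at the 190-cell stage, 96.6 and 82.7 CPM in null and 143.9 and 85.1 CPM in wild type at bean, and 447.7 and 409.7 CPM in null and 518.6 and 390.8 CPM in wild type at 2-fold. From bean to 2-fold it rose by 2.26 on the log2 scale in null (SE 0.51, edgeR adjusted p = 0.00393) and by 1.99 in wild type (SE 0.50, edgeR adjusted p = 0.0162). The wild-type call was lost without wild-type bean replicate 2 (adjusted p = 0.138) or without wild-type 2-fold replicate 1 (adjusted p = 0.187).

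For ttr-35 (WBGene00017688, 6512285 to 6512918, plus strand) the level was 40.7 and 17.4 CPM in null and 16.3 and 21.5 CPM in wild type at the 190-cell stage, where the 40.7 CPM was a single read. It was 61.2 and 36.9 CPM in null and 64.3 and 55.2 CPM in wild type at bean, and 223.2 and 264.3 CPM in null and 365.5 and 272.2 CPM in wild type at 2-fold. Like its neighbour, it had 2-fold libraries that all exceeded its bean libraries. The log2 rise was 2.32 in null (SE 0.55, edgeR adjusted p = 0.00607) and 2.42 in wild type (SE 0.55, edgeR adjusted p = 0.00625), and the wild-type call was lost without wild-type bean replicate 2 (adjusted p = 0.0522) or wild-type 2-fold replicate 1 (adjusted p = 0.114).

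**Figure D3:**
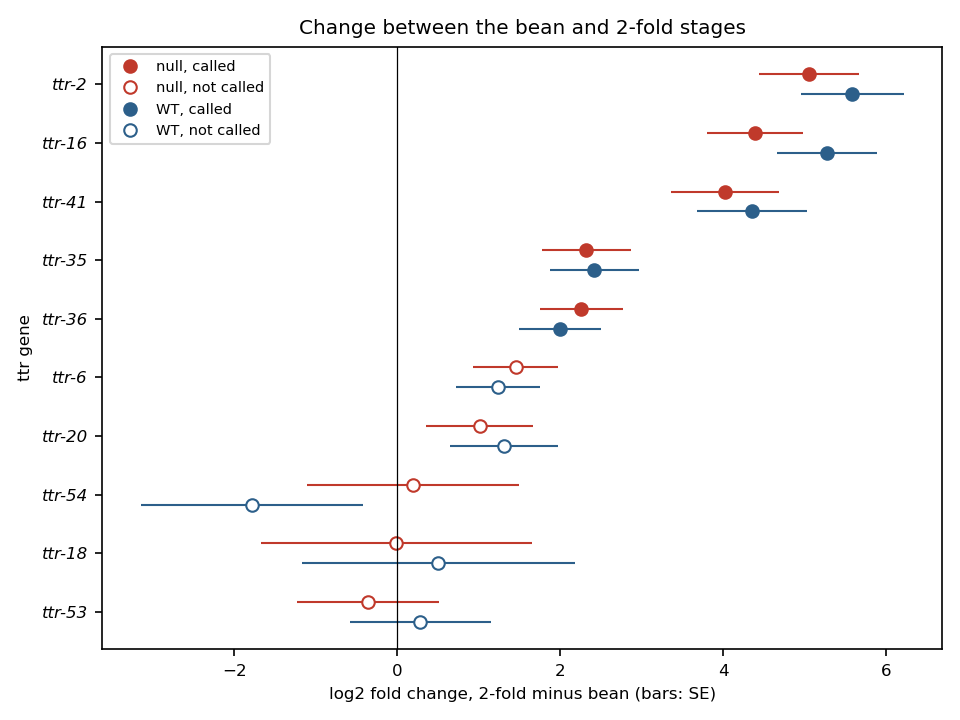
Fitted log2 difference, 2-fold over bean, for the 10 tested ttr genes other than ttr-50 whose means reached the floor in both stages of both genotypes, null above wild type, with bars of 1 SE and filled points for adjusted p under 0.05. The rises of ttr-2 (5.05 in null, 5.58 in wild type), ttr-16, ttr-41, ttr-35 and ttr-36 are filled in both genotypes.

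The member with the best-known role, ttr-52 (WBGene00008719, chromosome III, 13404718 to 13405783, plus strand), moved the other way from bean to 2-fold. Its level was 0 and 7.30 CPM in null and 25.3 and 41.1 CPM in wild type at the 190-cell stage, 32.2 and 22.4 CPM in null and 22.7 and 32.3 CPM in wild type at bean, and 0.893 and 0 CPM in null and 8.06 and 2.42 CPM in wild type at 2-fold. The 2-fold libraries were below the bean libraries in both genotypes. In null embryos it fell (edgeR adjusted p = 0.0449), with 2 reads at 2-fold against 161 at bean, and its bean mean was 2.76 times the 2-fold floor. In wild type, where the 2-fold mean was also under its floor, it was not called (edgeR adjusted p = 0.517). The null call was just inside the threshold and was lost with RLE scaling (adjusted p = 0.0654), with molecule scaling (adjusted p = 0.0579) and without most single libraries (adjusted p up to 0.208, without null 2-fold replicate 2).

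Between the 190-cell and bean stages fewer members changed. In null embryos 4 of 32 members rose (ttr-2, ttr-6, ttr-16 and ttr-41) where 4.63% of all genes rose, and in wild-type embryos 4 of 32 rose (ttr-6, ttr-36, ttr-41 and ttr-47) where 4.18% did. By edgeR 0 members fell in either genotype, against 0.688% of all genes in null and 0.846% in wild type, while 1 in null and 3 in wild type were lower at an unadjusted p under 0.05 and DESeq2 called 1 lower in null, ttr-59, which had 2 reads there. Of the null calls, ttr-2, ttr-16 and ttr-41 had bean means of 12.1, 13.5 and 22.4 CPM, under the null 190-cell floor of 25.2 CPM, so no fold is given for them. The null count was 0 without the deeper of the null 190-cell libraries (replicate 2), and only 1 member was called when counts were scaled to estimated molecules.

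Called in both genotypes over this interval, with bean means above every floor, was ttr-6 (WBGene00020886, chromosome X, 6596425 to 6597121, minus strand). It had 0 and 20.8 CPM in null and 10.9 and 14.3 CPM in wild type at the 190-cell stage, 131.9 and 101.9 CPM in null and 85.1 and 127.4 CPM in wild type at bean, and 242.8 and 395.6 CPM in null and 276.6 and 222.6 CPM in wild type at 2-fold. The bean libraries all exceeded the 190-cell ones. Its log2 rise from 190-cell to bean was 3.09 in wild type (SE 0.57, edgeR adjusted p = 0.000516). In null, where the 190-cell mean was under its floor, the bean mean was 4.63 times that floor (edgeR adjusted p = 0.0151, but 0.766 without null 190-cell replicate 2). The later step, 1.45 in null and 1.23 in wild type, missed the threshold (edgeR adjusted p = 0.0792 and 0.223).

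In wild type, ttr-41 rose between the 190-cell and bean stages (edgeR adjusted p = 0.000312, but 0.115 with molecule scaling), with reads in 1 of its 190-cell libraries and a bean mean 3.01 times the 190-cell floor. In the same embryos ttr-36 rose by 2.60 on the log2 scale (SE 0.52, edgeR adjusted p = 0.00154). The same step of ttr-36 in null, from a 190-cell mean under the floor, was not called (edgeR adjusted p = 0.252). For ttr-2 the null call (edgeR adjusted p = 0.0124) rested on a single 190-cell read, and in wild type the gene was not called (edgeR adjusted p = 0.120).

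The chromosome V gene ttr-47 (WBGene00019203, 8923088 to 8923896, plus strand) had no 190-cell reads in either genotype, 8.97 and 4.47 CPM in null and 42.3 and 18.9 CPM in wild type at bean, and 3.57 and 32.9 CPM in null and 39.1 and 41.1 CPM in wild type at 2-fold. In wild type its bean mean was 3.65 times the 190-cell floor (edgeR adjusted p = 0.0182). That call was lost without any of 3 single wild-type libraries: 190-cell replicate 1 (adjusted p = 0.156), 190-cell replicate 2 (adjusted p = 0.0590) or bean replicate 1 (adjusted p = 0.0578).

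Among the other members was the eighth most abundant, ttr-20 (WBGene00018085, chromosome IV, 4246793 to 4247490, plus strand). It had 0 and 95.4 CPM in null and 73.5 and 74.5 CPM in wild type at the 190-cell stage, 39.0 and 51.2 CPM in null and 61.2 and 44.8 CPM in wild type at bean, and 92.0 and 90.2 CPM in null and 166.6 and 94.4 CPM in wild type at 2-fold, and was called nowhere. Reads came at the 2-fold stage only for 5 tested members: ttr-10, ttr-17, ttr-21, ttr-25 and ttr-37. These 5 reached the minimum of 20 reads through the 2-fold libraries alone, so the filter fixed their direction. Without their 2-fold reads, ttr-1, ttr-3, ttr-31, ttr-33, ttr-44 and ttr-59 were also under that minimum.

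The second question was whether loss of the miR-51 family changed ttr mRNA levels at each stage. No ttr gene was called at any single stage by edgeR or by DESeq2, and 1 of 33, ttr-16, was called on the average over stages. At the 190-cell stage 0 of 33 were called (0.216% of all genes) and 5 had an unadjusted p under 0.05. At bean 0 were called (0.0663% of all genes) and 0 had an unadjusted p under 0.05, and at 2-fold 0 were called (2.16% of all genes) and 2 had one. On the average over stages 4.52% of all genes were called, of which the null-lower share was 3.59% and the null-higher share 0.929%. A genotype effect that differed between stages was called for 0 members by either tool (0.464% of all genes by edgeR), and 2 members had an unadjusted p under 0.05. The median log2 difference over the members, null over wild type, was -0.02 at the 190-cell stage, 0 at bean and -0.51 at 2-fold, against -0.20, 0 and -0.14 over all genes tested. Genes without reads in both groups enter these medians as 0. Over members with reads in both genotypes the median was -0.33 at the 190-cell stage (9 genes), -0.23 at bean (17 genes) and -0.45 at 2-fold (28 genes).

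**Figure D4:**
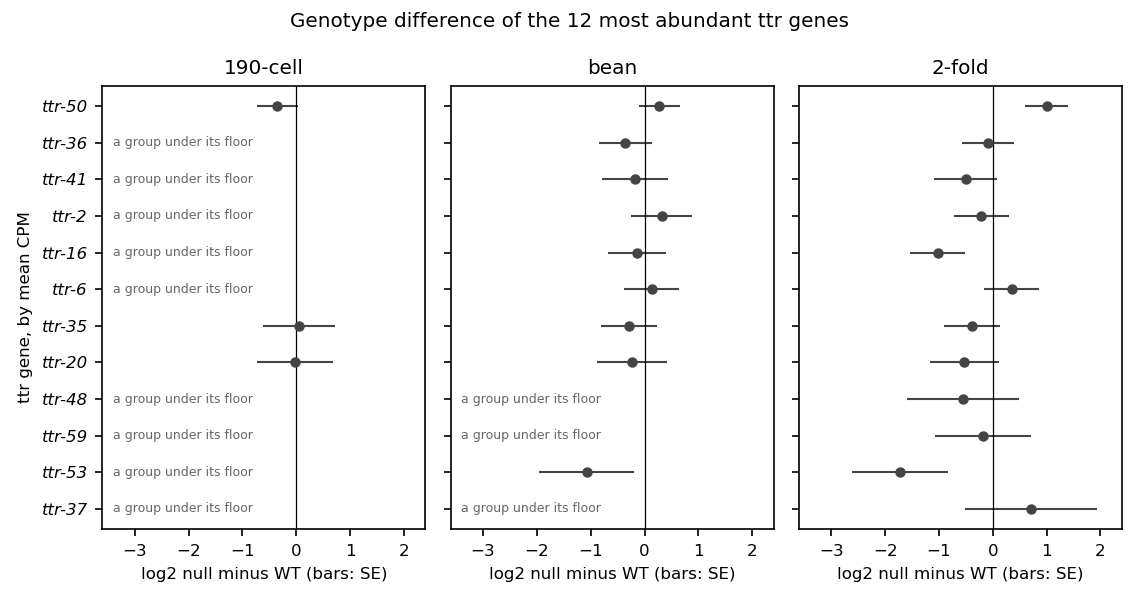
Fitted log2 difference, null over wild type, at each stage for the 12 most abundant ttr genes, as points with bars of 1 SE, and a grey note where a group mean was under its floor. At 2-fold ttr-50 lies at 0.999 and ttr-16 at -1.03, and no point is past the threshold.

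At the 2-fold stage both null libraries lay below both wild-type libraries for 15 members, where 25.8% of all genes did so, and above them for 3 members (ttr-3, ttr-37 and ttr-50), where 16.1% did. The 15 included ttr-16, ttr-20, ttr-35, ttr-41, ttr-47, ttr-48, ttr-52 and ttr-53. Also among the 15 were ttr-33 and ttr-44. Both reached the minimum read count for testing only through the wild-type 2-fold libraries, so the filter fixed their direction. The same minimum applied to all genes, and its part in these counts was not tested. Yolk protein genes separated the genotypes at this stage too, at 0 and 6.17 CPM in null and 1053 and 3317 CPM in wild type, and their part in the result was not tested.

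The difference of ttr-50 was largest at 2-fold, with null libraries of 156.2 and 276.3 CPM above wild-type libraries of 92.1 and 125.8 CPM. Its log2 difference there was 0.999 (SE 0.39, edgeR adjusted p = 0.270, 0.53 to 1.44 with single libraries left out), against -0.35 at the 190-cell stage (SE 0.39) and 0.28 at bean (SE 0.38). Averaged over stages it was 0.31 (SE 0.22, edgeR adjusted p = 0.613, 0.08 to 0.53 with single libraries left out), and the test of a stage-dependent effect gave an adjusted p of 0.805. The 2-fold difference passed the threshold without null bean replicate 1 (adjusted p = 0.0394), null bean replicate 2 (adjusted p = 0.0454) or null 2-fold replicate 1 (adjusted p = 0.0389), and the other alternatives gave adjusted p from 0.0610 to 0.814.

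For ttr-16 the average was lower in null by edgeR (adjusted p = 0.00878) and by DESeq2 (adjusted p = 0.0392). The average includes the 190-cell stage, with no reads in null, so no fold is given. The wild-type mean there was 7.04 CPM, which is under the null floor of 25.2 CPM, so at this depth the gene could not have been seen reliably in null embryos. The call was lost without null 190-cell replicate 2 (adjusted p = 0.982) and with molecule scaling (adjusted p = 0.531). At 2-fold, null levels of 286.6 and 277.9 CPM were below wild-type levels of 678.9 and 468.3 CPM, a log2 difference of -1.03 that was not called (SE 0.51, edgeR adjusted p = 0.478).

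For ttr-52 null embryos had lower levels at both ends of the series, 0 and 7.30 CPM against 25.3 and 41.1 CPM in wild type at the 190-cell stage and 0.893 and 0 CPM against 8.06 and 2.42 CPM in wild type at 2-fold, and overlapping levels at bean. None of these was called by edgeR or DESeq2, and edgeR adjusted p was 0.943 at the 190-cell stage, 0.435 at 2-fold and 0.284 on average. The null 190-cell mean and both 2-fold means were under their floors, so no fold is given there, and the log2 difference at bean was -0.01. For ttr-53 the average was not called either (edgeR adjusted p = 0.0976), with 25.4 and 20.5 CPM in null and 72.7 and 78.6 CPM in wild type at 2-fold, where the libraries did not overlap. With molecule scaling, which lost the call of ttr-16, the average of ttr-53 was called lower in null.

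A list drawn up as partners of TTR-52 in corpse recognition and uptake was taken through the same tests. Of the 16 tested genes of this list, which holds ced-1, the receptor that TTR-52 reaches, ced-7, nrf-5, psr-1 and the ced-2, ced-5, ced-12 and ced-10 uptake genes among others, 2 were called in any comparison, pat-2 and tim-1, against 17.1% of all genes. Leaving out tim-1, which is in the list by name only, pat-2 was the only one called. The alpha integrin gene pat-2 was at 0 and 0 CPM in null and 0 and 5.36 CPM in wild type at the 190-cell stage, 109 and 163 CPM in null and 57.0 and 63.7 CPM in wild type at bean, and 153 and 225 CPM in null and 104 and 60.5 CPM in wild type at 2-fold. In null its bean mean was 5.38 times the 190-cell floor (edgeR adjusted p = 0.00547). It also rose in wild type (edgeR adjusted p = 0.0124), where reads came from 1 of the 190-cell libraries and the bean mean was 7.205 times the 190-cell floor. The null call was lost without null 190-cell replicate 2, and the wild-type call without either wild-type bean library (adjusted p = 0.0641 and 0.0651). The gene tim-1 stands in the list by its name, but in C. elegans it is the homologue of Timeless, which acts in DNA replication and sister chromatid cohesion. It had no reads in null and 21.7 and 14.5 CPM in wild type at 2-fold, where the wild-type mean was 1.83 times the null floor. It was called lower in null (edgeR adjusted p = 0.000435), a call lost with molecule scaling (adjusted p = 0.224) and with the 2-fold libraries alone (adjusted p = 0.146).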

How the data were processed

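Count files of 12 libraries were used, each with 20362 genes and 5 summary lines. Per the study's methods, the authors extracted molecular identifiers with UMI-tools, trimmed the reads, aligned them to WBcel235 with STAR, removed duplicates by identifier and counted with HTSeq. The deposited values are raw counts per gene, and the submitters' processing notes name STAR, HTSeq and DESeq2 with no version. Of all reads, 31.8% to 53.7% were assigned to genes, 39.3% to 63.5% aligned to several places, 4.00% to 8.65% met no feature and 0.0472% to 0.0882% were ambiguous. These lines entered no library size or test. The depth per library is given above.

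Genes were named from a table of gene IDs (19643 of 20362 matched), and positions came from the Ensembl release 115 annotation of WBcel235. Genes with at least 20 reads in total were fitted with edgeR 4.0.16 in R 4.3.3 (6 group means, TMM scaling, quasi-likelihood F test) and called at an adjusted p under 0.05. CPM used the TMM-scaled library sizes. Where a group mean was under its floor, no fitted difference is given for a single gene, and the other mean is set against that floor. To judge how many molecules lay behind the reads, reads per molecule were estimated in each library, assuming Poisson sampling, from the share of reads-free genes among those at 1 to 3 CPM elsewhere. With each read taken as independent, no replicate pair agreed within sampling noise (chi-square per degree of freedom 1.54 to 44.2). Several reads per molecule, as estimated here, would raise this value too, so it does not show that replicates disagreed. The study calls its replicates independent duplicates.

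The members and all gene lists were chosen with earlier results of these data known. Named genes were ttr-50, the members with a studied function (ttr-11, ttr-33 and ttr-52), members called by genotype, the 8 most abundant members, up to 3 called members with the largest fitted change in each stage comparison among those whose libraries did not overlap, and called partner genes. ttr-1, ttr-3, ttr-17 and ttr-53 were named after their values were seen. Alternatives were RLE scaling, no low-count filter, molecule scaling, DESeq2 1.42.0, a fit within each stage, a replicate block and leaving out each library. Simulated counts were used to test the fit.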

Additional observations from a re-analysis of the deposited data

Results flagged for a closer look

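The genotype effect on tim-1, the Timeless homologue that is in the TTR-52 partner list by name only, differed between stages by the interaction test (edgeR adjusted p = 0.00899). Its level was 81.4 and 71.9 CPM in null and 145 and 94.7 CPM in wild type at the 190-cell stage, 36.9 and 37.6 CPM in null and 36.1 and 15.9 CPM in wild type at bean, and 0 and 0 CPM in null and 21.7 and 14.5 CPM in wild type at 2-fold. As given above, the 2-fold genotype call was lost with molecule scaling and with the 2-fold libraries alone. Within null embryos the bean mean of tim-1 was 3.76 times the 2-fold floor (edgeR adjusted p = 2.3e-05).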

How the results depend on the processing

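At the 190-cell stage 1 member, ttr-16, was called by genotype with RLE scaling, with no filter on low counts and with a replicate block, against 0 in the reported fit. Over the bean minus 190-cell step the count was 1 with molecule scaling in null embryos (4 as reported) and 8 with no filter in wild type (4 as reported). From bean to 2-fold in null, RLE scaling gave 10 members higher and 0 lower, against 8 and 1. RLE scaling also moved the median of all genes by 0.15 for genotype at the 190-cell stage, by -0.13 from 190-cell to bean in null, and by 0.24 in null and 0.36 in wild type from bean to 2-fold. The bean difference of ttr-52 was 0.024 with no filter and -0.01 as reported.

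With single libraries left out, the genotype counts ranged from 0 to 2 at the 190-cell stage, 0 to 0 at bean, 0 to 1 at 2-fold and 0 to 3 on average. The interaction count stayed at 0. The rising or falling members numbered 0 to 4 in null and 3 to 7 in wild type from 190-cell to bean, and 7 to 10 in null and 5 to 9 in wild type from bean to 2-fold. The wild-type count was 5 without wild-type bean replicate 2, which lost ttr-35, ttr-36 and ttr-48. The difference of ttr-50 ranged from -0.96 to 0.24 at the 190-cell stage and from -0.031 to 0.58 at bean, and that of ttr-52 at bean from -0.23 to 0.26.

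Replicate numbers did not pair the libraries: of 15 correlations of same-numbered deviations, 1 was above 0.1 (range -0.177 to 0.194, over 6028 genes). A replicate block gave 10 members from bean to 2-fold in null against 9 as reported, and changed no other count by over 1.5 times beyond the 190-cell one. Over named genes, 622 alternative values kept their direction and side of the threshold, 38 lost a call, 3 gained one and 7 changed sign. Depth limits the 190-cell results most, since the null floor there was 25.2 CPM.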

Other observations

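The 10 members with 1 to 19 reads appeared mostly in a single library. In wild-type 2-fold replicate 2, 8 of the 10 had reads, against at most 3 in any other library. The same library had a yolk sum of 3317 CPM and 39 members with reads, and the part of maternal material in this was not tested.

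Marker sums for some differentiated tissues were higher at 2-fold than at earlier stages, and others were not. The epidermis list summed to 244 and 337 CPM in null and 301 and 341 CPM in wild type at the 190-cell stage. At bean its sums were 2784 and 2550 CPM in null and 2342 and 1926 CPM in wild type. At 2-fold they were 6195 and 5590 CPM in null and 5189 and 3705 CPM in wild type. The body muscle list summed to 163 and 353 CPM in null and 460 and 440 CPM in wild type at the 190-cell stage. At bean its sums were 833 and 822 CPM in null and 437 and 598 CPM in wild type. At 2-fold they were 2264 and 2051 CPM in null and 2216 and 1790 CPM in wild type. The first null 190-cell value of every list here came from the shallow library, where 1 read was 40.7 CPM. The pharynx list was lower at 2-fold, with 180 and 158 CPM in null and 236 and 156 CPM in wild type, than at bean, with 345 and 374 CPM in null and 322 and 324 CPM in wild type. The glia list summed to 262 and 272 CPM in null and 297 and 221 CPM in wild type at 2-fold, and to 340 and 287 CPM in null and 285 and 284 CPM in wild type at bean. The intestine list summed to 208 and 128 CPM in null and 159 and 164 CPM in wild type at bean. At 2-fold it summed to 572 and 389 CPM in null and 641 and 423 CPM in wild type. The neuron list summed to 265 and 167 CPM in null and 259 and 261 CPM in wild type at bean. At 2-fold it summed to 377 and 370 CPM in null and 495 and 439 CPM in wild type. At the 190-cell stage the pharynx list summed to 81.4 and 289 CPM in null and 121 and 225 CPM in wild type. The glia list there summed to 122 and 322 CPM in null and 240 and 222 CPM in wild type. For intestine it was 285 and 184 CPM in null and 256 and 294 CPM in wild type. For neurons it was 40.7 and 237 CPM in null and 223 and 236 CPM in wild type. The part of these lists in the ttr changes was not tested.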
